A study of Mus musculus with 24 samples.

Results

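The 8 genes described here, Gfap, Vim, Nes, Serpina3n, Lcn2, Timp1, Aspg and Cebpd, are commonly used to recognise reactive astrocytes, and they were selected by name from the 55416 gene rows of the table. The choice was made on results of the Ethanol against Control comparison that were already known, so the levels below describe that comparison for these genes and carry no test of it. The study asked how the cerebellum of newborn mice responds when ethanol exposure begins. C57BL/6J mice of the Ethanol group received 4 g/kg/day of ethanol in intralipid by gavage from postnatal day 4 (P4), and mice of the Control group received the intralipid with water in place of ethanol. Brains were collected at P5 or P6, and 12 animals of each group gave 1 RNA-seq library each. By the study's methods, P5 animals were treated on P4 only and P6 animals on P4 and P5. The labels give a treatment and an animal number, and not an age, sex or litter. Ages, numbers of doses and sexes are therefore pooled throughout.

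Astrocytes answer injury, inflammation and many toxic insults by a graded change called reactivity. They enlarge, build up intermediate filaments, and switch on secreted proteins such as protease inhibitors and acute phase proteins. Interleukin-6 family cytokines acting through STAT3, and interleukin-1, TNF and complement C1q from microglia, are well known inducers. In the newborn cerebellum the astroglia include Bergmann glia, whose fibres guide migrating granule cells, and radial glia-like progenitors, which carry vimentin and nestin as a normal part of their development.

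Total counts ranged from 26982510 to 38804909 per animal. Ttr, which marks choroid plexus, was nearly absent in 4 libraries, from Control X4761, Control X4770, Ethanol X4568 and Ethanol X4766, and summed choroid plexus markers ranged from 35.5 to 5470 CPM (counts scaled to library size) in Control and from 46.5 to 5460 CPM in Ethanol animals. The labels call the tissue brain, and the study's methods call it cerebellum. All 24 astrocyte and Bergmann glia markers had enough counts to be tested, Gdf10 of Bergmann glia among them at 274 ± 17.4 CPM (SD, n = 12) in Control animals. Sorted by number, the animals form 6 runs of 4, each with 2 Ethanol and 2 Control animals. The study took animals from 6 litters, 3 at each age, and no source used here ties a number to a litter, so run, litter and age cannot be told apart.

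Gfap, Serpina3n and Aspg are shown by their promoters because their levels moved together between animals, as described further on. Each sequence runs from 250 bases before to 20 bases after the start site annotated by RefSeq in GRCm38.p6, an older build than the GRCm39 named in the submitters' processing notes. Capitals mark matches to TTCNNNGAA, the palindrome bound by STAT proteins, or to TTNNGNAA, a loose C/EBP pattern, on either strand. The Gfap window lies at chr11:102897181-102897450 on the minus strand, that of Serpina3n at chr12:104406458-104406727 on the plus strand, and that of Aspg at chr12:112106433-112106702 on the plus strand.
Gfap: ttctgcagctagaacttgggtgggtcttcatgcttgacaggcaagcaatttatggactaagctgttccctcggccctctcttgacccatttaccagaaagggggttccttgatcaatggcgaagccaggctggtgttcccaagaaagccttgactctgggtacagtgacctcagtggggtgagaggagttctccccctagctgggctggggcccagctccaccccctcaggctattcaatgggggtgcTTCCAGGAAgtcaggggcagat
Serpina3n: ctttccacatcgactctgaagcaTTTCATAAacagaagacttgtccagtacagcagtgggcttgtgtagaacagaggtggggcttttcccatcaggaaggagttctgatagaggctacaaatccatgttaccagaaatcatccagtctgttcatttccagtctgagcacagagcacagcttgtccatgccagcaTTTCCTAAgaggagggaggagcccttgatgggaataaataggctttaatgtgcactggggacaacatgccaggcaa
Aspg: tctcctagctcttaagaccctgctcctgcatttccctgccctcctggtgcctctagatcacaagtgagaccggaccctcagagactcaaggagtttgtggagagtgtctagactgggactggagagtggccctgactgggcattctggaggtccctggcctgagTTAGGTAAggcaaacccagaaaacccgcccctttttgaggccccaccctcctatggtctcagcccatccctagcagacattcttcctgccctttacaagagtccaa

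The motif search used the full 300-base windows, with 50 bases after the start site, and 7 of the 8 members had one (Cebpd had none). A STAT match was present in the window of Gfap, where it began 2 bases before the start site, and in no other of the 7, against 8.3% of 32851 mouse windows. A C/EBP match was present in Vim, Nes, Serpina3n, Lcn2, Timp1 and Aspg, against 40.7% of all windows. Serpina3n held 2 such matches, and Nes held 2 that overlap each other. An AP-1 match (TGANTCA) was found in none of the 7 windows and in 7.81% of all windows. These are matches of letters, and binding was not measured.

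Of the 8 genes, 5 were called higher in Ethanol animals at an adjusted p under 0.05 (edgeR's quasi-likelihood test over 17736 genes), none was called lower and 3 were not called. At an unadjusted p under 0.05, and with DESeq2, 1 member was lower. Over all genes tested, 9.07% were called higher and 5.8% lower, and since this contrast chose the members nothing is read from their count. All 8 members passed the filter on low counts. The median log2 fold change of the members was 0.67, and that of all genes tested was -0.006. Timp1 lay just inside the threshold (adjusted p = 0.0287 from edgeR) and Nes just outside it (adjusted p = 0.0534 from edgeR). Both values only describe where the threshold fell.

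The intermediate filament genes came first in level and differed among themselves. Gfap, the glial fibrillary acidic protein that stiffens the astrocyte skeleton, lay at 164 to 517 CPM in Control animals (median 314) and at 504 to 835 CPM in Ethanol animals (median 620). Of 12 Ethanol animals, 11 were above every Control animal, and the exception (Ethanol X4758, 504 CPM) was below 1 Control animal of the same run (Control X4761, 517 CPM). The means were 325 ± 124 CPM (SD, n = 12) and 647 ± 103 CPM (SD, n = 12), and the log2 fold change was 0.99 (SE 0.18). Spread around the mean was wider in Control animals, where the SD was 38.2% of the mean, than in Ethanol animals, where it was 15.9%.

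Vim, the vimentin gene of immature and reactive astroglia, progenitors, vessels and mesenchyme, showed no such separation. It lay at 475 to 854 CPM in Control (median 676) and at 564 to 816 CPM in Ethanol animals (median 672). The Ethanol range lay inside the Control range, and 6 of 12 Ethanol animals exceeded the Control median. The log2 fold change was -0.03 (SE 0.08).

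Nes, the nestin gene of neural progenitors and endothelium that reactive astrocytes can take up again, pointed the other way. It lay at 94.4 to 170 CPM in Control (median 141) and at 95.2 to 150 CPM in Ethanol animals (median 110). Only 1 of 12 Ethanol animals exceeded the Control median, although the ranges overlapped over most of their length. The means were 138 ± 25.0 CPM and 116 ± 14.4 CPM (SD, n = 12 each), and the log2 fold change, -0.26 (SE 0.09), was not called. Nes was called lower in 13 of 39 other settings, among them DESeq2 and the fit with runs as a block (-0.25).

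Among the secreted proteins, Serpina3n, an inhibitor of serine proteases that reactive astrocytes release, differed most clearly. It lay at 2.97 to 10.3 CPM in Control (median 4.75) and at 7.79 to 27.3 CPM in Ethanol animals (median 16.8). Again 11 of 12 Ethanol animals were above every Control animal, and the 2 Control animals that reached the Ethanol range were those of run 5. The means were 5.43 ± 2.31 CPM and 17.1 ± 5.89 CPM (SD, n = 12 each), and the log2 fold change was 1.66 (SE 0.22).

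Lcn2, lipocalin-2, an iron-siderophore binding protein of the acute phase response that astrocytes, endothelium and neutrophils make, was the most variable member. It lay at 0.185 to 5.2 CPM in Control (median 0.407) and at 0.152 to 39.3 CPM in Ethanol animals (median 4). The Control range lay inside the Ethanol range, and the lowest value of all was in an Ethanol animal of run 2, from 5 counts, where the highest, in Ethanol X4760 of run 5, came from 1071 counts. The SD on the log2 scale was 2.19 in Ethanol and 1.24 in Control animals. The means were 0.954 ± 1.39 CPM and 6.19 ± 10.7 CPM (SD, n = 12 each), and the log2 fold change was 2.71 (SE 0.77). The Control median was exceeded in 10 of 12 Ethanol animals. Without Ethanol X4760 the log2 fold change was 1.76 and was not called.

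Timp1, an inhibitor of matrix metalloproteinases, lay at 1.39 to 3.25 CPM in Control (median 2.49) and at 2.28 to 4.02 CPM in Ethanol animals (median 3.19). The ranges overlapped, with 6 of 12 Ethanol animals above every Control animal and 3 of 12 Control animals below every Ethanol animal. The means were 2.45 ± 0.474 CPM and 3.13 ± 0.544 CPM (SD, n = 12 each), and the log2 fold change was 0.36 (SE 0.11). The call was lost without any 1 of 4 animals, at 0.34 without Ethanol X4568, 0.32 without Ethanol X4569, 0.32 without Ethanol X4694 and 0.33 without Control X4686.

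Aspg, which encodes an asparaginase that splits asparagine into aspartate and ammonia, lay at 0.331 to 2.03 CPM in Control (median 0.786) and at 0.77 to 4.45 CPM in Ethanol animals (median 2.21). The groups overlapped, and 11 of 12 Ethanol animals exceeded the Control median. The exception was Ethanol X4760, the animal in which Lcn2 was highest. The means were 0.931 ± 0.523 CPM and 2.43 ± 1.0 CPM (SD, n = 12 each), and the log2 fold change was 1.40 (SE 0.26).

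Cebpd, the transcription factor C/EBP delta of acute phase and inflammatory responses, lay at 1.71 to 3.03 CPM in Control (median 2.1) and at 1.82 to 4.14 CPM in Ethanol animals (median 2.43). The ranges overlapped, and 2 Ethanol animals, X4569 and X4760, were above every Control animal. The log2 fold change was 0.21 (SE 0.13) and was not called. Its counts were fractional in 23 of 24 libraries, so its values depend on how the estimation shared out reads. Those of Serpina3n were fractional in 2 libraries, and those of the other members were whole in every library.

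**Figure D1:**
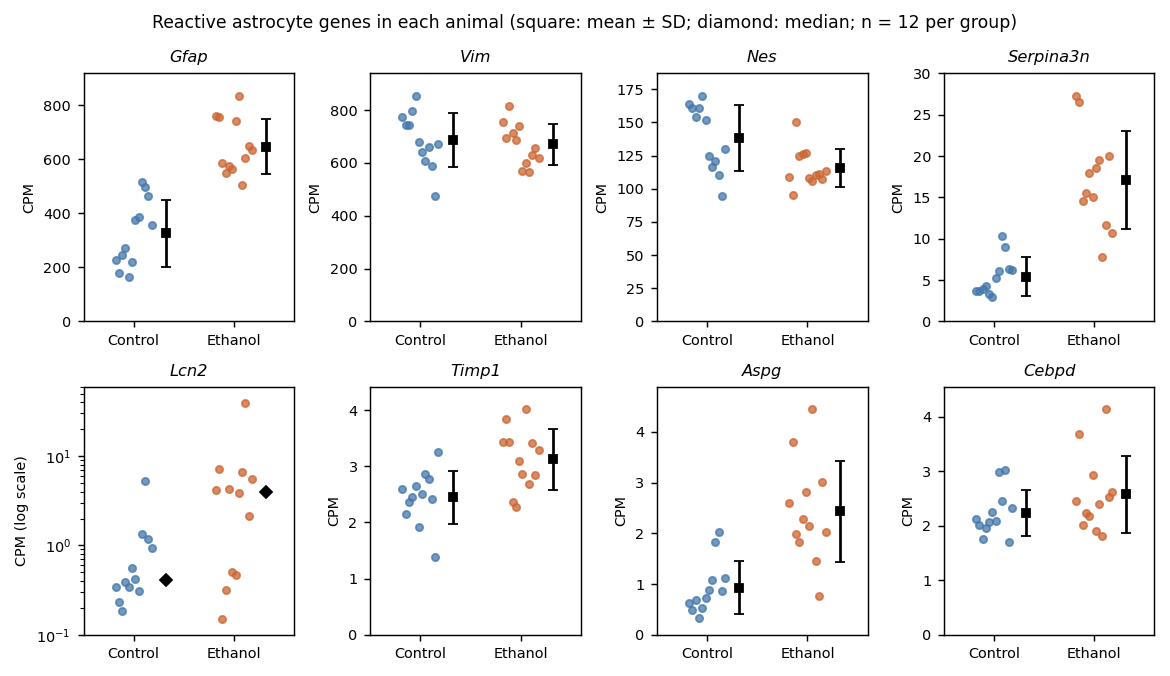
Level of each of the 8 members in CPM for 12 Control and 12 Ethanol animals, 1 point per animal in order of animal number, with squares and bars for the mean ± SD and, for Lcn2 on its log axis, diamonds for the median. Gfap and Serpina3n have 11 of 12 Ethanol points above all Control points, and the Lcn2 points of the Ethanol group run from 0.152 to 39.3 CPM.

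Between genes, levels can be compared only per transcript length. Per kilobase of the longest coding transcript, Vim stood highest in Control animals at 313 ± 47.2 CPM per kb (SD, n = 12), followed by Gfap at 123 ± 47.0 and Nes at 22.6 ± 4.08 CPM per kb, and the ranges of these neighbours did not overlap. Timp1 (2.77 ± 0.537 CPM per kb), Serpina3n (2.63 ± 1.12), Lcn2 (1.04 ± 1.52), Cebpd (0.595 ± 0.112) and Aspg (0.342 ± 0.192) followed in the Control animals, and each overlapped the next. In Ethanol animals Vim was at 306 ± 35.2 and Gfap at 244 ± 38.9 CPM per kb, with ranges that now overlapped. Serpina3n at 8.29 ± 2.85 CPM per kb stood next after Nes (18.9 ± 2.35), with overlap into Lcn2 (6.77 ± 11.7) and Timp1 (3.54 ± 0.617), and Aspg (0.893 ± 0.368) stood ahead of Cebpd (0.688 ± 0.189), whose range overlapped its own. The RNA is of whole tissue, so fewer cells of a type and less RNA per cell cannot be told apart in any of these values.

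Within the runs of animal numbers the size of the difference varied. Both Ethanol animals had more Gfap than both Control animals in 5 of 6 runs. The ratio of Ethanol to Control means was 3.74 in run 1 and 2.97 in run 3, where Control animals were at 164 to 228 CPM. It was 2.2 in run 2, 2.07 in run 4 and 1.57 in run 6. In run 5 it was 1.09, with Control animals at 517 and 499 CPM and Ethanol animals at 504 and 603 CPM. The lowest Ethanol value and the 2 highest Control values of all were in run 5.

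Serpina3n followed the same order, from a ratio of 7.36 in run 1 to 1.01 in run 5. Its Ethanol animals were at 27.3 and 26.6 CPM in run 1 and at 7.79 and 11.7 CPM in run 5, and its Control animals were at 3.69 and 3.63 CPM in run 1 and at 10.3 and 9.06 CPM in run 5. Here both groups of run 5 stood apart, the Ethanol animals toward the low end of their group and the Control animals at the top of theirs. Aspg had ratios of 2.55 to 5.73 in 5 runs. In run 5 the ratio was 0.577, and both Ethanol animals (1.46 and 0.77 CPM) were below both Control animals (1.83 and 2.03 CPM).

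A test of whether the Ethanol minus Control difference varied among the 6 runs, added after the values had been seen, passed the threshold for Serpina3n and Gfap (edgeR treatment by run interaction, adjusted p = 0.00492 for each). They ranked 3 and 4 among 17736 genes, of which 12 (0.0677%) were called. Aspg did not pass (adjusted p = 0.0997), nor did Nes (adjusted p = 0.568) or the other members. The test asks whether runs differ and not which, and it rested on 2 runs: without run 1 the adjusted p was 0.0904 for Gfap and 0.182 for Serpina3n, and without run 5 it was 0.136 and 0.181. Each run gives only 2 animals per group.

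Nes came near this order, and the remaining members are given by their range. Lcn2 had a ratio of 7.0 in run 5 and 19.6 in run 1, and in run 2 it was 0.81, the only run below 1. Timp1 had a higher Ethanol mean in 6 of 6 runs, at ratios of 1.18 to 1.53, but both Ethanol animals were above both Control animals in only 1 run. The Ethanol mean of Nes was lower in 6 of 6 runs. Its ratio was farthest from 1 in run 1 (0.628). Run 3 (0.788), run 2 (0.874), run 4 (0.884), run 5 (0.956) and run 6 (0.979) followed. Apart from the last 2 runs this was the order of Gfap and Serpina3n, with runs 2 and 4 close together. The order was not tested. Nes and Gfap were also opposed between the same animals, as given further on, so it is no separate observation. Both Ethanol animals had less Nes than both Control animals in 4 of 6 runs. Vim stayed between 0.93 and 1.11, and Cebpd between 0.849 and 1.49.

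Other genes were set beside the members in run 5. Cebpg, a C/EBP family member of the amino acid stress response, was at 46.3 and 54.0 CPM in the Control animals of run 5 and at 74.4 and 87.4 CPM in its Ethanol animals, a ratio of 1.61, the highest of the 6 runs. Of 2146 genes called from the other 5 runs, 86.0% had the same direction in run 5, the lowest share of the 6 runs, and the corresponding share was 86.1% to 95.1% for the other runs. Osmr, Cd44, Csf1 and Stat3, genes linked with reactivity, had their lowest ratio of the 6 runs in run 5, at 1.05, 1.03, 1.03 and 1.01. Ratios by run were looked up for a few chosen genes only, Cebpg among them. Those of Cd14, Ptgs2, Ch25h, S1pr3 and Ggta1, given further on as higher, were not. Csf1 was picked by likeness to Serpina3n and Aspg, as described further on, so its ratio in run 5 is no separate observation. Nor is that of Stat3, which was called in the test of a difference among runs. Without run 5 the log2 fold change was 1.21 for Gfap, 2.02 for Serpina3n, 1.88 for Aspg, 2.53 for Lcn2 and 0.38 for Timp1, whose call was lost.

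**Figure D2:**
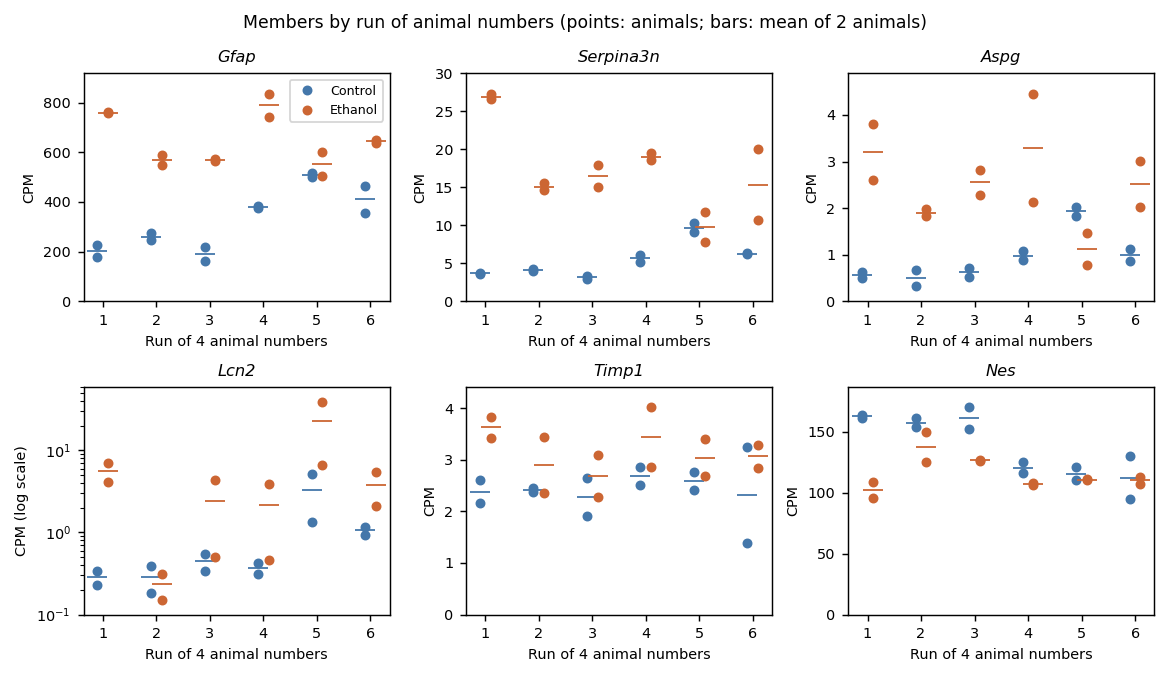
Level in CPM of 6 members by run of 4 consecutive animal numbers, with 1 point per animal and a bar at the mean of the 2 animals of each group (Lcn2 on a log axis). The groups lie apart for Gfap, Serpina3n and Aspg in 5 runs and meet or cross in run 5, where the ratios of means are 1.09, 1.01 and 0.577.

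Covariation between animals of the same group does not use the mean difference between groups. A difference that varies among runs, as tested above for Gfap and Serpina3n, stays in the values, also after run means are removed. Pearson's r and Spearman's rho of log2 CPM were computed for the 28 pairs of members over 24 animals after removal of each group's mean, and were tested by permuting animals within groups (two-sided permutation test, adjusted over 28 pairs). The test treats animals of a group as exchangeable across runs, also after run means are removed. Control animals differed between runs, for Gfap from 164 to 273 CPM in runs 1 to 3 and from 356 to 517 CPM in runs 5 and 6. The adjusted p of the pairs may therefore be too small. Of the 28 pairs, 13 passed, 7 positive and 6 negative, and 10 of them also passed by rank. All 13 had the same sign in the Control and in the Ethanol group, but r was closer to 0 in Ethanol animals for several. It was -0.78 in Control and -0.12 in Ethanol animals for Gfap and Vim, 0.72 and 0.14 for Gfap and Lcn2, -0.72 and -0.25 for Nes and Aspg, and -0.79 and -0.29 for Nes and Serpina3n.

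Gfap, Serpina3n and Aspg rose and fell together. Gfap and Serpina3n had r = 0.82 (permutation test, adjusted p = 0.00028) and rho = 0.83 (adjusted p = 9.33e-05), with r = 0.93 in Control and 0.73 in Ethanol animals. Serpina3n and Aspg had r = 0.77 (permutation test, adjusted p = 0.000392) and rho = 0.83 (adjusted p = 9.33e-05). Gfap and Aspg had r = 0.70 (permutation test, adjusted p = 0.000392) and rho = 0.78 (adjusted p = 0.000336). Leaving out the 2 animals farthest from the median of the first gene gave r = 0.83, 0.78 and 0.68. With run means removed as well, r was 0.89, 0.78 and 0.74, and all 3 pairs passed. These values still hold any Ethanol difference that varied among runs.

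The intermediate filaments split. Vim and Nes, the filament genes shared with progenitors, had r = 0.84 (permutation test, adjusted p = 0.00028) and rho = 0.76 (adjusted p = 0.000336). Gfap and Nes were opposed, with r = -0.82 (permutation test, adjusted p = 0.000373) and rho = -0.87 (adjusted p = 9.33e-05). Both pairs passed with run means removed (r = 0.68 and r = -0.73), and r was 0.75 and -0.79 without the 2 farthest animals. Gfap and Vim had r = -0.62 (permutation test, adjusted p = 0.0119) and rho = -0.57 (adjusted p = 0.0215), which fell to r = -0.27 with run means removed (adjusted p = 0.518). In Control animals the 6 lowest values of Gfap and the 6 highest of Nes and of Vim all came from runs 1, 2 and 3, so these pairs carry differences between runs, whose cause was not tested.

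Nes was also opposed to Serpina3n (r = -0.60, permutation test, adjusted p = 0.0118, rho = -0.74, adjusted p = 0.000607), and with run means removed r was -0.61 (adjusted p = 0.0242). The other pairs that passed were Nes with Lcn2 (r = -0.56) and with Aspg (r = -0.54), Lcn2 with Cebpd (r = 0.54), with Vim (r = -0.45) and with Gfap (r = 0.38), and Timp1 with Cebpd (r = 0.48). None of these 6 passed once run means were removed. Lcn2 and Cebpd fell to r = 0.28 without the 2 animals farthest in Lcn2. Vim and Timp1 did not pass at first (r = 0.34, permutation test, adjusted p = 0.212) and passed with run means removed (r = 0.79, adjusted p = 0.00308), where without the 2 animals farthest in Vim, run means kept, r was -0.05. Lcn2, the member with the largest fold change, had r = 0.19 with Serpina3n and 0.12 with Aspg, and neither pair passed.

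**Figure D3:**
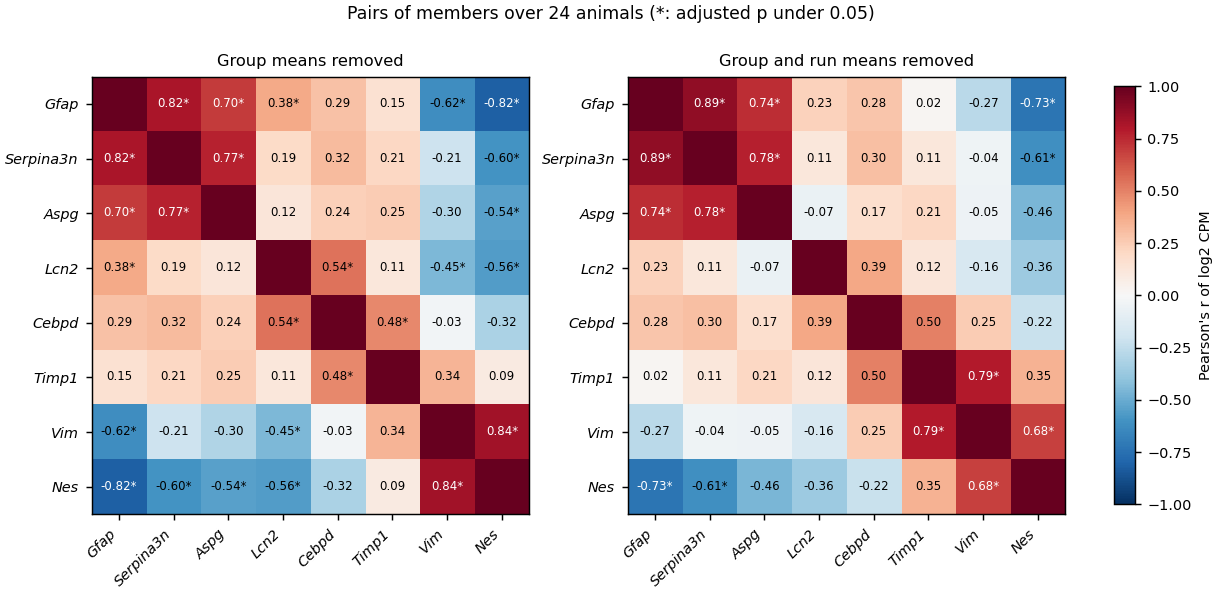
Pearson's r of log2 CPM for the 28 pairs of members over 24 animals, with group means removed (left) and with group and run means removed (right), on a colour scale from -1 to 1, an asterisk marking an adjusted p under 0.05. Gfap, Serpina3n and Aspg form a positive block at 0.70 to 0.82 on the left and 0.74 to 0.89 on the right, and Nes is negative to all 3.

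The genes most like each member, by r of group-centred log2 CPM over 24 animals, fell into different sets. For Gfap they were C4b, the complement C4 gene (r = 0.92), Spp1, the osteopontin gene (r = 0.87), and Adora1, the adenosine A1 receptor (r = 0.86). For Serpina3n they were Csf1, the growth factor of microglia (r = 0.88), Spp1 (r = 0.87) and Gpnmb, a glycoprotein of activated phagocytes (r = 0.83). Aspg shared Csf1 (r = 0.81) and Spp1 (r = 0.78) with it, and the other was Serpina3n itself. These values were chosen as the highest of many and describe these animals.

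The same genes differed between the groups. C4b rose from 15.9 to 30.8 CPM on average (log2 fold change 0.96, SE 0.20, edgeR adjusted p = 0.00247) and Gpnmb from 5.82 to 12.1 CPM (1.06, SE 0.22, edgeR adjusted p = 0.00263). Adora1 had log2 fold change 0.41 (SE 0.06, edgeR adjusted p = 0.000149). In run 5 the ratio of Ethanol to Control means was 1.23 for C4b, 1.06 for Adora1, 0.899 for Spp1 and 0.693 for Gpnmb, in each case the lowest ratio of the 6 runs. These ratios were looked up after those of the members had been seen. The genes were picked for likeness to the members with run differences kept, so their ratios are no separate observation about run 5.

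For Lcn2 the most alike were Csf2rb, the common beta chain of the interleukin-3 and GM-CSF receptors (r = 0.90), Il4ra, the interleukin-4 receptor (r = 0.89), and Il1r1, the interleukin-1 receptor (r = 0.89). Il1r1 rose from 3.49 to 6.41 CPM (log2 fold change 0.88, SE 0.24, edgeR adjusted p = 0.0159). For Cebpd they were the immediate early and feedback genes Csrnp1 (r = 0.77), Nfkbia (r = 0.74) and Zfp36 (r = 0.74). For Vim they were Pea15a (r = 0.94), Gnai2 (r = 0.93) and Fscn1 (r = 0.91), for Nes Adsl (r = 0.88), Pole4 (r = 0.87) and Sae1 (r = 0.85), and for Timp1 Adck2 (r = 0.72), H3f3a-ps2 (r = 0.70) and Polm (r = 0.69).

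Cell type markers were set beside the members as means of log2 CPM, again with group means removed, run differences kept and no test. Lcn2 had r = 0.75 with 7 neutrophil and granulocyte precursor markers, 0.51 with 10 microglia markers and 0.46 with 24 astrocyte and Bergmann glia markers. The neutrophil markers also had r = 0.48 with Gfap, -0.60 with Vim and -0.56 with Nes. Summed neutrophil markers, of which none of 14 was at 0 in every library, ranged from 10.4 to 26.0 CPM in Control (median 12.3) and from 9.43 to 27.0 CPM in Ethanol animals (median 11.8), and the highest sum was in Ethanol X4760. Control X4762 had a sum of 26.0 CPM, with Lcn2 at 5.2 CPM against 39.3 CPM in Ethanol X4760. Ethanol X4568 had the lowest sum of all, 9.43 CPM, with Lcn2 at 4.12 CPM. Ethanol X4681 had a sum of 10.8 CPM with Lcn2 at 4.3 CPM. Both Lcn2 values were above the 0.185 to 0.554 CPM of Control animals in runs 1 to 4. In Control animals the sums and Lcn2 were both highest in runs 5 and 6. None of the 7 neutrophil markers tested was called between the groups by edgeR, and Mmp9, lower at an unadjusted p under 0.05, was the 1 that DESeq2 called. The part of neutrophils in the Lcn2 values was not tested.

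Gfap had r = 0.52 with the astrocyte and Bergmann glia markers, -0.56 with 11 endothelial markers and -0.64 with 10 leptomeningeal fibroblast markers. Serpina3n had 0.33, -0.37 and -0.47 with the same lists. Vim and Nes had the opposite sign for astroglia (r = -0.66 and -0.61) and were positive with 11 neural progenitor markers (r = 0.69 and 0.45). Choroid plexus markers had r = -0.46 with Gfap and -0.41 with Serpina3n. Without the 4 libraries low in Ttr the log2 fold change was 1.08 for Gfap and 1.79 for Serpina3n.

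Between the groups, 8 of 24 astrocyte and Bergmann glia markers were higher in Ethanol animals and 2 were lower (edgeR). The shares over all genes tested were 9.07% higher and 5.8% lower. Among the higher were Hes5, a Notch target of glial progenitors (log2 fold change 0.78, SE 0.11, adjusted p = 7.96e-05), Sox9, a transcription factor of the glial lineage (0.24, SE 0.04, adjusted p = 0.00022), and Slc1a2, the glutamate transporter GLT-1 (0.20, SE 0.04, adjusted p = 0.00193). Lower were Gdf10, a growth factor of Bergmann glia (-0.25, SE 0.04, adjusted p = 0.000395), and Hopx (-0.15, SE 0.03, adjusted p = 0.00338). The list's median log2 fold change was 0.13. Summed, the list ranged from 7920 to 8630 CPM in Control and from 8260 to 9560 CPM in Ethanol animals.

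Some markers of other cells were called too, beside 9.07% of all genes called higher and 5.8% called lower. Of 10 microglia markers 4 were higher and 1 was lower, and of 11 endothelial markers 1 was higher and 6 were lower, with summed levels of 473 to 538 CPM in Control and 419 to 479 CPM in Ethanol animals. Of 10 pericyte and smooth muscle markers 3 were lower, of 10 leptomeningeal fibroblast markers 3 were lower, and none of either list was higher by edgeR or DESeq2, with or without adjustment. Of 12 choroid plexus markers none was called by edgeR, DESeq2 or limma, and none had an unadjusted p under 0.05. The 6 red cell markers tested had a median log2 fold change of -0.67. Of them 1 was called lower by edgeR and 2 by limma, and at an unadjusted p under 0.05, edgeR had 2 lower and limma 6. The part of these cells in the members' values was not tested.

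Beyond the members, 33 further genes known from reactive astrocytes were listed, and 30 had enough counts. Of these, 8 were higher in Ethanol animals and 2 were lower (edgeR), beside 9.07% and 5.8% of all genes tested. Of 8 genes listed here as marking reactivity of any kind, 4 were higher and 1 was lower, with a median log2 fold change of 0.18. The lists were written from general knowledge, and published panels may place genes such as Cd109 and Ch25h otherwise. The hyaluronan receptor Cd44 rose from 21.5 ± 2.58 to 29.8 ± 4.89 CPM (SD, n = 12 each; 0.47, SE 0.08, edgeR adjusted p = 0.000251). The oncostatin M receptor Osmr had log2 fold change 0.60 (SE 0.14, edgeR adjusted p = 0.00551), the cholesterol hydroxylase Ch25h one of 1.06 (SE 0.30, adjusted p = 0.0181) and the sphingosine phosphate receptor S1pr3 one of 0.15 (SE 0.05, adjusted p = 0.0331). Cd109, a TGF-beta co-receptor, was lower (-0.24, SE 0.06, edgeR adjusted p = 0.00776).

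Genes listed here for neuroinflammatory (A1) and ischemic (A2) reactivity were counted apart, beside 9.07% of all genes called higher and 5.8% called lower. A difference between the lists was not tested. Of 12 A1 genes 1, Ggta1, a galactosyltransferase, was higher (0.22, SE 0.06, edgeR adjusted p = 0.0194), none was lower and the median was 0.04 (1 was lower at an unadjusted p under 0.05 and with DESeq2). The complement gene C3, often used as the leading A1 gene, had log2 fold change 0.33 (SE 0.24) and was not called, and it was singled out after its values were seen. Of 10 A2 genes, 3 were higher and 1 was lower, with a median of 0.15. They were the endotoxin co-receptor Cd14 (1.25, SE 0.20, edgeR adjusted p = 0.000169), the cyclooxygenase Ptgs2 (1.66, SE 0.41, adjusted p = 0.00752) and Stat3 (0.21, SE 0.04, adjusted p = 0.00192), with the glycosyltransferase B3gnt5 lower (-0.30, SE 0.05, adjusted p = 0.000453).

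**Figure D4:**
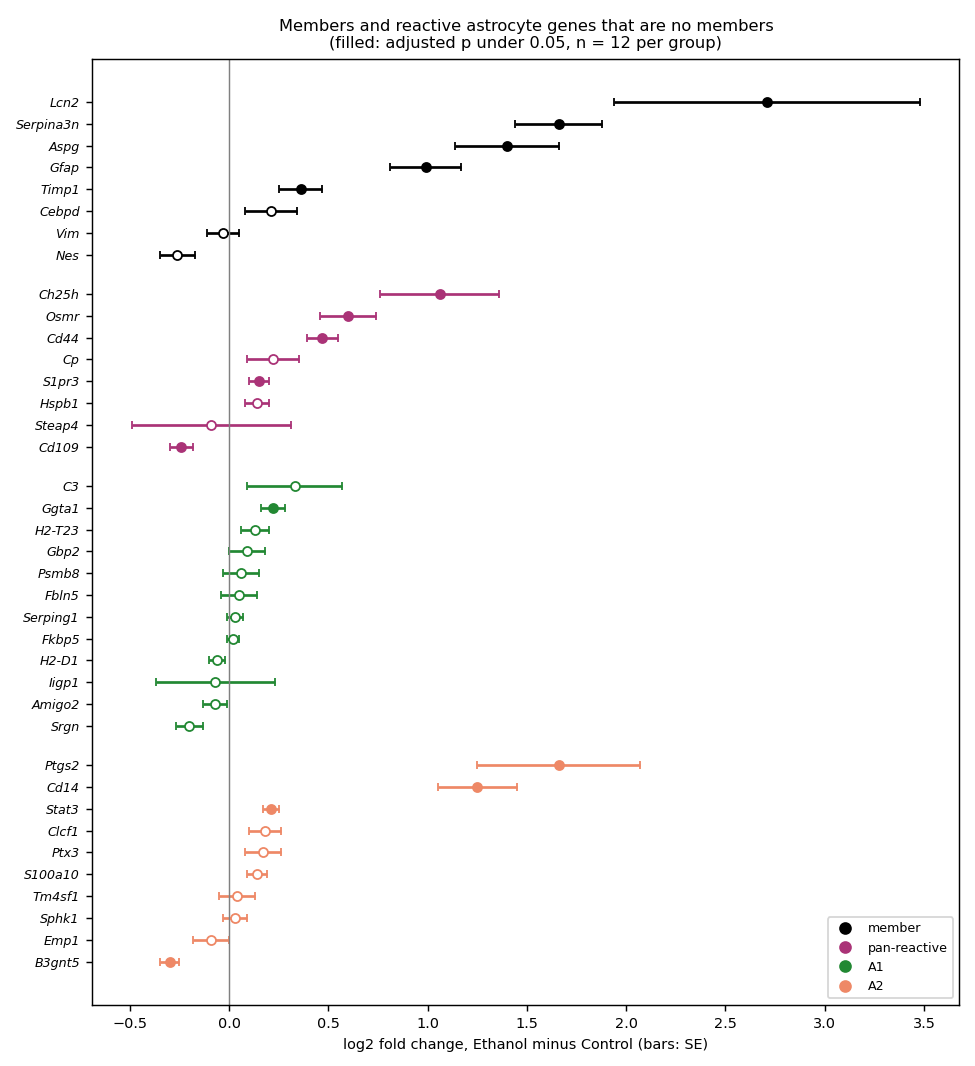
Log2 fold change with SE, Ethanol minus Control (n = 12 per group), of the 8 members (black) and of 30 other genes known from reactive astrocytes, by list, filled where the adjusted p was under 0.05. Among the 30 other genes, 8 filled points lie to the right of 0 and 2 to the left, and 1 of 12 A1 points is filled.

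Of 21 tested cytokines that induce reactivity, their receptors and the JAK-STAT genes below them, 7 were higher, none was lower and the median log2 fold change was 0.09 (edgeR). Among all genes tested, 9.07% were higher and 5.8% lower. The 3 chains of complement C1q were among them: C1qb (0.55, SE 0.11, adjusted p = 0.00131), C1qa (0.54, SE 0.12, adjusted p = 0.00369) and C1qc (0.43, SE 0.10, adjusted p = 0.00376). Stat3 and Osmr, given above, and Il1r1 also belong to this list, and the receptor gene Cntfr, named to complete the count, was the other (0.11, SE 0.03, adjusted p = 0.0189). Of the 26 genes listed, Il6, Osm, Il1a, Il1b and Tnf had too few counts to be tested. The cytokine genes Lif, Cntf, Il11, Clcf1 and Tgfb1 were tested and not called by edgeR, nor was Socs3. At an unadjusted p under 0.05, 1 gene of the list was lower, and DESeq2 called 8 higher and none lower. In the test of a difference among runs Stat3 was 1 of the 12 genes called (adjusted p = 0.048). Its ratio of Ethanol to Control means was 1.49 in run 1 and 1.01 in run 5.

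The relatives of the members are given by family, beside 9.07% of all genes called higher and 5.8% called lower. Of 13 other intermediate filament genes and partners, 1 was higher (Plec, plectin, 0.12, SE 0.03, edgeR adjusted p = 0.0138) and 1 lower (Lmnb1, lamin B1, -0.15, SE 0.03, adjusted p = 0.00272). Of 27 clade A serpins and target proteases only 3 had enough counts, and Serpina3g was higher (1.42, SE 0.43, edgeR adjusted p = 0.0284), with fractional counts in 5 libraries. The Serpina3 genes are near copies of each other, so their reads may be split between them. Of 5 lipocalins and lipocalin-2 receptors tested, Apod, apolipoprotein D, was higher (0.65, SE 0.13, edgeR adjusted p = 0.00188).

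Of 20 tested metalloproteinases, their inhibitors and Cd63, the cell surface partner of TIMP-1, 4 were higher and 3 were lower (edgeR). Cd63 (0.14, SE 0.03, adjusted p = 0.00515), Mmp14 (0.11, SE 0.03, adjusted p = 0.0141), Adamts9 (0.16, SE 0.05, adjusted p = 0.0226) and Timp3 (0.14, SE 0.05, adjusted p = 0.0489) were the higher ones. Mmp2, the gelatinase that TIMP-1 can inhibit, was lower (-0.32, SE 0.10, adjusted p = 0.0357), as were Mmp15 and Mmp16.

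The C/EBP family differed from Cebpd itself. Of its 5 other tested genes 3 were higher and none was lower by edgeR, DESeq2 or limma, with a median log2 fold change of 0.39 (4 were higher at an unadjusted p under 0.05). Cebpg rose from 51.4 ± 3.63 to 75.3 ± 7.26 CPM (SD, n = 12 each; 0.55, SE 0.05, edgeR adjusted p = 4.36e-08). Ddit3, the stress factor CHOP, had log2 fold change 0.39 (SE 0.07, adjusted p = 0.00032) and Cebpb one of 0.42 (SE 0.13, adjusted p = 0.0285). Of 7 genes of asparagine and aspartate metabolism, Asns, the asparagine synthetase whose product Aspg degrades, was higher (0.51, SE 0.10, edgeR adjusted p = 0.001), and Got2 was lower (-0.08, SE 0.02, adjusted p = 0.0134).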

How the data were processed

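Poly(A) RNA of 24 mice was sequenced, 1 library per animal by label. The authors processed the reads with nf-core/rnaseq 3.4 (STAR, Salmon, limma and GRCm39 stand in the submitters' processing notes), and deposited estimated counts for 55416 gene rows. Of these rows 1597 repeat the name of another, and 10.9% of the values differ from a whole number by more than 0.01. Annotation release and strandedness: not given in the sources used here. Counts were rounded, filtered with filterByExpr (17736 genes), scaled by TMM and compared by the quasi-likelihood test of edgeR 4.0.16 (R 4.3.3, robust fit, 22 residual degrees of freedom), adjusted by Benjamini-Hochberg over all genes, and checked on simulated counts. SE was taken from the F statistic, and CPM use TMM-scaled library sizes. Pairs and likeness used log2 CPM (prior count 2), with 100000 permutations within groups (Python 3.11.15, numpy 2.4.6, scipy 1.17.1), whose smallest p is 1e-05. For pairs with runs removed, permuted values were centred again. The members and all gene lists were chosen with earlier results of these data known.

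The genes named were all members, up to 4 genes of smallest p in each direction of each list, and the 3 genes most like each member (mean log2 CPM at least 0), and some of them are not reported here. Alternatives were limma 3.58.1 (trend and voom), DESeq2 1.42.0, RLE and upper-quartile scaling, no filter, at least 1 CPM in 12 libraries, runs as a block, a prior count of 0.5, and leaving out each animal, each run or the 4 libraries low in Ttr. The interaction with run and its repeats were added after the values were seen. Start sites and lengths come from RefSeq (GRCm38.p6) and GENCODE models of another build than GRCm39. Plots were drawn with matplotlib 3.10.9.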

Additional observations from a re-analysis of the deposited data

Results flagged for a closer look

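The Ethanol minus Control difference of Gfap varied among the 6 runs of animal numbers by a test of the difference itself (edgeR treatment by run interaction, adjusted p = 0.00492), from a ratio of means of 3.74 in run 1 to 1.09 in run 5. That of Serpina3n varied in the same test (edgeR, adjusted p = 0.00492), from 7.36 in run 1 to 1.01 in run 5. The test was added after the values were seen, each run has 2 animals per group, and what separates the runs is not in the labels.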

How the results depend on the processing

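Gfap (log2 fold change 0.84 to 1.21), Serpina3n (1.40 to 2.02) and Aspg (1.19 to 1.88) were called higher in 39 of 39 alternatives, and Vim and Cebpd in 0 of 39. Lcn2 (1.76 to 3.42) was called in 31 of 38. It was not called with limma-trend (1.90) or limma-voom (1.92), without Ethanol X4760 (1.76), without run 1 (2.54), run 3 (2.74) or run 4 (2.73), or without the 4 libraries low in Ttr (2.85). Timp1 (0.30 to 0.41) was called in 31 of 39 and Nes (-0.30 to -0.17) in 13 of 39, and no direction turned. These tallies refit mostly the same animals and describe how calls depend on the settings. They are no test of the members, which this contrast chose. The count of 5 members higher was 3 without run 1 and 3 without run 4. The count of 0 members lower was 1, Nes, with upper-quartile factors, with the filter of at least 1 CPM in 12 libraries, with runs of animal numbers as a block, with DESeq2 and without run 6, and 0 to 1 when single animals were left out. Of the other reactive genes 2 were lower, and 1 without run 4. Of 28 pairs of members 13 passed, 7 with group and run means removed (6 of them shared) and 8 without the 4 libraries low in Ttr. The adjusted p of the interaction with run (edgeR) was 0.0904 for Gfap and 0.182 for Serpina3n without run 1, and 0.136 and 0.181 without run 5. It stayed between 0.00314 and 0.0299 for Gfap and between 3.51e-05 and 0.0182 for Serpina3n in the other settings. The causes were not tested. Lcn2 (5 to 1071 counts per library), Aspg (11 to 156), Timp1 (47 to 141) and Cebpd (55 to 128) rest on few counts, Lcn2 above all in Control animals. Their values per animal therefore carry more counting error than those of Gfap, Vim and Nes. The labels pair no Ethanol animal with a Control animal, so the runs were the only block that could be fitted. The main fit had no block.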

Other observations

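Besides Serpina3n, Gfap and Stat3, the test of a difference among runs called 9 genes. Cd34 (adjusted p = 0.000554 from edgeR) and Cd93 (adjusted p = 0.0274) encode sialomucin and lectin-like proteins of the endothelial surface, and Prnd (adjusted p = 0.00327) encodes the prion-like protein doppel. Scd1, a fatty acid desaturase (adjusted p = 0.0402 from edgeR), and Hmgcs1, a synthase of the cholesterol pathway (adjusted p = 0.0402), belong to lipid synthesis. The others were Dysf, the dysferlin gene of membrane repair (adjusted p = 0.00492 from edgeR), Chid1 (adjusted p = 0.0274), 4632433K11Rik (adjusted p = 0.0285) and Tspan33 (adjusted p = 0.0402). The test called 1 gene without run 1, 21 without run 6 and 40 without the 4 libraries low in Ttr, so the list depends on the animals kept.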
